A study of Mus musculus with 6 samples.

Results

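This account covers 36 genes of RNA-binding proteins that control splicing, RNA stability, RNA editing and the formation of circular RNAs (circRNAs) in mouse primary visual cortex (V1). The members were chosen by symbol and matched to Ensembl IDs, and all 36 were found among the 52636 genes of the count table. The circRNAs were those whose host gene column names a member, 11 of the 1488 listed, from 7 member genes. The study compared contralateral V1 (left, opposite the sutured right eye) with ipsilateral V1 (right). The animals were 3 wild-type mice (C57BL/6J), 28 days old and deprived of vision in that eye for 3 days. Each mouse gave 1 library of total RNA per hemisphere, so there were 3 contralateral and 3 ipsilateral libraries, paired by mouse. All 3 mice were deprived, and ipsilateral V1 is the other side of a deprived brain, not the cortex of an undeprived animal. The tissue was dissected in bulk, so fewer cells of a type and less RNA per cell cannot be told apart.

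Splicing regulators of this kind bind short motifs in introns and exons and decide which exons enter the mature RNA. A circRNA arises when the end of an exon is joined back to the start of the same or an earlier exon, a reaction called back-splicing. Quaking and muscleblind proteins can favour back-splicing by binding the introns that flank an exon, whereas the editing enzyme ADAR and the helicase DHX9 can disfavour it by opening base-paired repeats in those introns. Many of these proteins exist as families of similar genes, and neurons often use other family members than glia do.

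Gene reads per library ranged over 17849253 to 32213500, and back-splice reads over 13428 to 26867. Contralateral library 2 was the shallowest and ipsilateral library 2 the deepest for gene reads. The mitochondrial ribosomal RNA mt-Rnr1 stood at 14.5 to 35.9 CPM (reads scaled to library size with TMM factors) in contralateral 1, ipsilateral 1 and ipsilateral 3, called the low set, and at 2243 to 5801 CPM in the high set of the other 3 libraries. Neuronal, excitatory, interneuron and glial marker genes were all detected. Of 16 immediate early genes, which neurons switch on quickly when active, 11 passed as lower in contralateral V1 and 16 did so with the mouse as a block. Their summed level was 503 to 769 CPM in contralateral and 1541 to 1779 CPM in ipsilateral libraries.

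Levels of the 36 genes are given per kilobase (RPKM, TMM-scaled CPM over the gene length in kilobases) wherever genes are compared. The lengths are the deposited ones, so the order of genes depends on the annotation behind them. Qk, which encodes quaking, a STAR-domain protein needed for myelin and for circRNA formation in several cell types, stood highest at 89.1 RPKM (77.1 to 106 over 6 libraries). Rbfox1, a neuronal splicing factor, followed with 77.8 RPKM (62.4 to 88.0), then Khdrbs3, whose product SLM2 controls neurexin splicing, with 74.1 RPKM (61.3 to 82.6). These ranges overlap, so the order of these 3 genes was not resolved. Their gene bounds also differ from those in the GENCODE M21 annotation, and Khdrbs3 has the shortest length of the 36 genes, 1887 bases. The lowest was Mbnl3, a muscleblind gene, at 0.105 RPKM (0.0854 to 0.141), while its relatives Mbnl2 (59.2 RPKM) and Mbnl1 (8.93 RPKM) stood far above it. Mbnl2 and Mbnl1 were closer before division by length, at 270 and 167 CPM, with lengths of 4552 and 18717 bases. Along the order of levels, the libraries of 33 of 35 neighbouring genes overlapped, and the exceptions were the steps between Celf2 and Adarb1 and between Adarb2 and Mbnl3. In all, 15 members averaged at least 20 RPKM and 5 less than 5 RPKM.

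**Figure D1:**
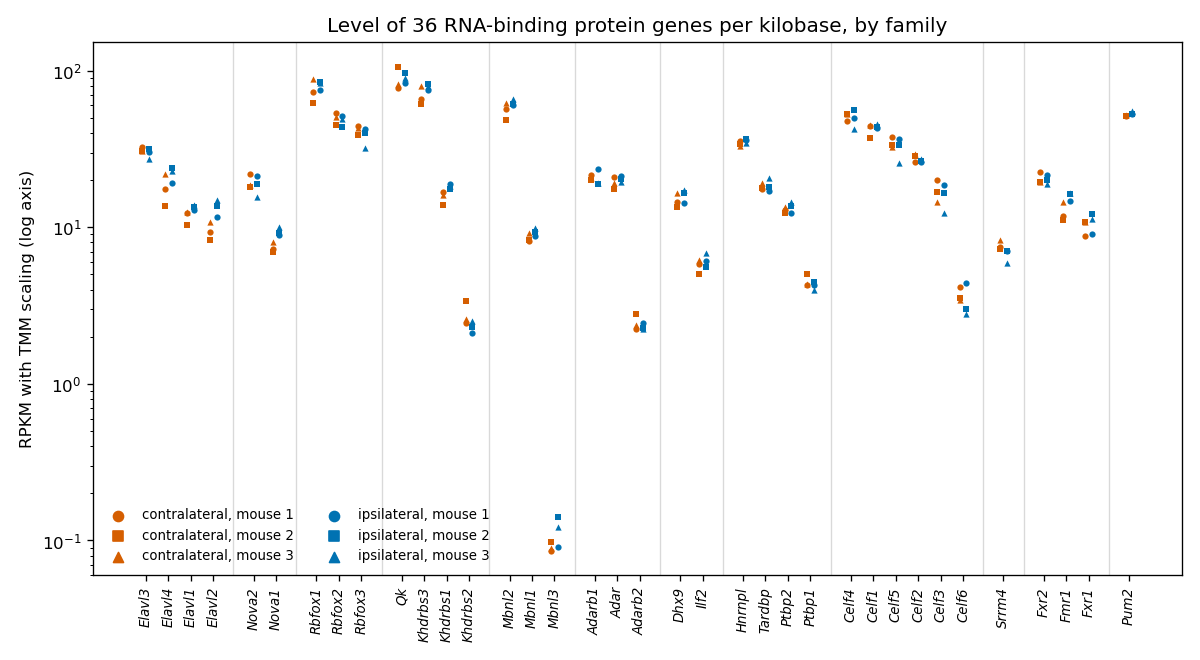
RPKM with TMM scaling on a log axis for 36 RNA-binding protein genes, grouped by family, with 1 symbol per library (orange contralateral, blue ipsilateral; the shape gives the mouse). Qk is the highest at a mean of 89.1 RPKM and Mbnl3 the lowest at 0.105 RPKM, and the libraries of neighbouring genes mostly overlap.

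Family members stood at different levels. Among the ELAV (Hu) genes, whose proteins stabilise RNAs with U-rich elements, Elavl3 stood at 30.6 RPKM, Elavl4 at 19.8, the ubiquitous Elavl1 at 12.6 and Elavl2 at 11.4. The neuronal Ptbp2 exceeded its relative Ptbp1, which represses neuronal exons in other cells. Their per-kilobase ratio in mice 1 to 3 was 3.03, 2.44 and 3.12 in contralateral V1, against 2.89, 3.08 and 3.65 in ipsilateral V1. The hemispheres overlap in that ratio. Among CELF genes, whose proteins bind GU-rich elements, Celf4 (50.5 RPKM) and Celf1 (43.2) were high and Celf6 (3.55) low. Celf2 had the highest CPM of that family (711), but its length of 25884 bases put it at 27.5 RPKM. Of the editing family, Adarb1, the ADAR2 enzyme that recodes a glutamate receptor subunit, averaged 20.7 RPKM and Adar 19.8. Adarb2, which has no known editing activity and marks a class of interneurons, averaged 2.39 RPKM.

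The main comparison asked which of these genes differ between V1 opposite the deprived eye and V1 on its side. Elavl2, a neuronal ELAV gene, had the smallest p and was lower in contralateral V1 in all 3 mice. Nova1, a neuron-specific splicing regulator, and Fmr1, which encodes the translational regulator lost in fragile X syndrome, were the next by p. In edgeR's quasi-likelihood test without a mouse block none of the 36 genes passed an adjusted p under 0.05 over 20473 genes (0 of 36, against 0.127% of all genes tested, 26 genes that were all lower). DESeq2 also called 0 of 36, against 0.396% of all genes. At an unadjusted p under 0.05, 3 members were lower (Elavl2, Nova1 and Fmr1) and 0 higher, against 2.87% and 3.28% of all genes. With the mouse as a block, 1 of 36 fell, Elavl2, and 0 rose, against 0.698% and 0.195% of all genes tested. At an unadjusted p under 0.05 with the block, 5 members were lower (those 3 with Elavl4 and Khdrbs1) and 1 higher (Khdrbs2), against 6.94% and 6.3% of all genes.

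Elavl2 (ENSMUSG00000008489, chromosome 4, 91250763 to 91400785, minus strand, GRCm38) had 77.6, 69.4 and 89.6 CPM in contralateral V1 of mice 1 to 3, against 96.6, 114 and 124 CPM in ipsilateral V1. Every contralateral library lay below every ipsilateral one. Its log2 fold change was -0.50 (SE 0.14, 95% interval -0.80 to -0.20), with an adjusted p of 0.504 in edgeR without the block and 0.0171 with it. Within the low mt-Rnr1 set (1 contralateral and 2 ipsilateral libraries) the value was -0.52, and within the high set (2 and 1) it was also -0.52. With the block it also passed when both libraries of mouse 1, 2 or 3 were left out (edgeR adjusted p = 0.00213, 0.0367 and 0.0224). Without the block it did not pass in any alternative, with edgeR or DESeq2 adjusted p from 0.0947 to 1.00. Set against Elavl3, the per-kilobase ratio was 0.288, 0.271 and 0.350 in contralateral and 0.385, 0.432 and 0.545 in ipsilateral libraries. The hemispheres do not overlap in this ratio, which needs no scaling between libraries but holds the same Elavl2 counts. Interneuron markers moved with Elavl2: their summed level was 505 to 571 CPM in contralateral and 680 to 766 CPM in ipsilateral V1. Of the 11 markers 10 were lower, against 44.6% of all genes tested. With the mouse as a block 4 of them (Vip, Gad1, Gad2 and Dlx6os1) fell. Their part in the Elavl2 difference was not tested, and the list includes Adarb2, itself a member, with a log2 fold change of 0.09. Summed pan-neuronal markers, 6 of 8 lower and none passing, were at 6016 to 7375 CPM in contralateral and 6864 to 7803 CPM in ipsilateral V1. No marker of either list was at 0.

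Nova1 had 63.7, 60.8 and 70.7 CPM in contralateral V1 of mice 1 to 3, against 77.9, 80.9 and 87.2 CPM in ipsilateral V1. The groups do not overlap, and the within-mouse log2 differences of -0.29, -0.41 and -0.30 were close to each other. The fitted log2 fold change was -0.33 (SE 0.12, 95% interval -0.59 to -0.08), which did not pass in edgeR (adjusted p = 0.732, and 0.105 with the block). Its relative Nova2, with 183, 152 and 156 CPM in contralateral and 179, 157 and 129.8 CPM in ipsilateral libraries, overlapped between hemispheres and had a log2 fold change of 0.07 (95% interval -0.23 to 0.38). The per-kilobase ratio of Nova1 to Nova2 was 0.332, 0.383 and 0.435 in contralateral and 0.416, 0.493 and 0.643 in ipsilateral libraries. The groups overlap in this ratio, but within each mouse the contralateral ratio was the lower one.

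Fmr1 had 106, 99.7 and 131 CPM in contralateral V1, against 132, 146 and 149 CPM in ipsilateral V1. The groups do not overlap, though contralateral library 3 and ipsilateral library 1 almost touch. The log2 fold change was -0.35 (SE 0.13, 95% interval -0.63 to -0.06; edgeR adjusted p = 0.748, and 0.120 with the block). Its paralogues, which bind many of the same RNAs, had log2 fold changes of -0.10 for Fxr1 (95% interval -0.41 to 0.20) and 0.02 for Fxr2 (-0.24 to 0.28). Fxr2 stood at 84.4, 73.1 and 73.6 CPM in contralateral and 81.1, 75.6 and 71.0 CPM in ipsilateral libraries. The per-kilobase ratio of Fmr1 to Fxr2 was 0.528, 0.573 and 0.745 in contralateral and 0.683, 0.813 and 0.882 in ipsilateral libraries. The groups overlap in this ratio, but within each mouse the contralateral ratio was the lower one.

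**Figure D2:**
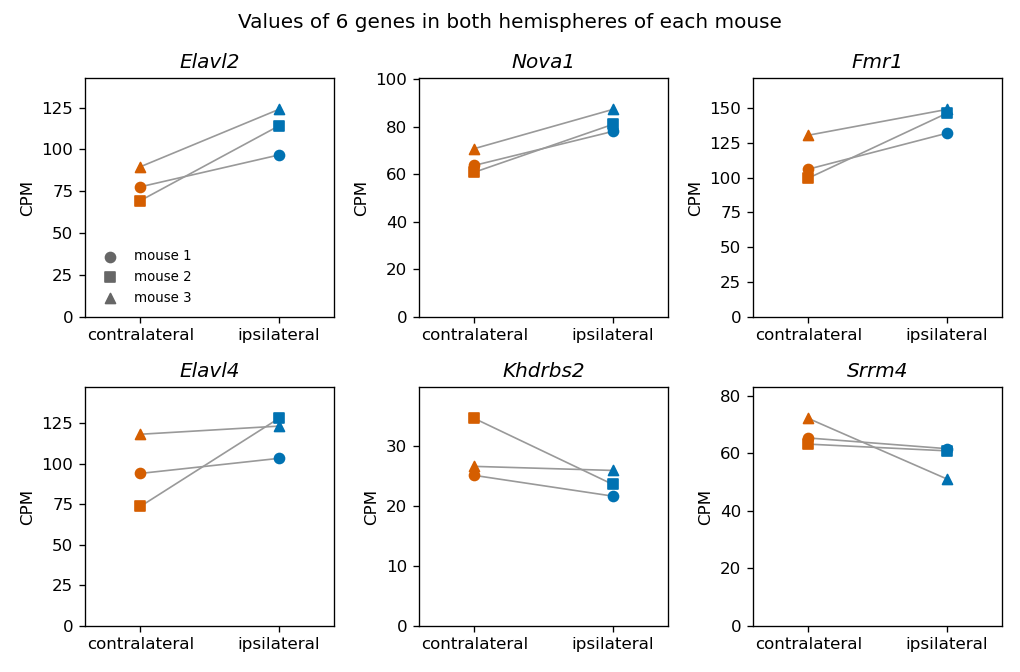
CPM with TMM scaling (axis from 0) of Elavl2, Nova1, Fmr1, Elavl4, Khdrbs2 and Srrm4 in contralateral (left, orange) and ipsilateral (right, blue) V1, with a line joining the hemispheres of each mouse. All 3 lines run upward to ipsilateral V1 for Elavl2, Nova1, Fmr1 and Elavl4, with the steepest Elavl4 line in mouse 2, and downward for Khdrbs2 and Srrm4.

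The other ELAV genes differed in how evenly the mice contributed. Elavl4 (HuD) had 94.0, 73.6 and 118 CPM in contralateral V1, against 103, 128 and 123 CPM in ipsilateral V1. Its within-mouse log2 differences were -0.14, -0.79 and -0.06, so mouse 2 carried most of the log2 fold change of -0.31 (95% interval -0.67 to 0.05; edgeR adjusted p = 0.824). Without contralateral library 2 that value was -0.16, and without both libraries of mouse 2, with the block, it was -0.10. Elavl1 (HuR) had 127, 107 and 131 CPM in contralateral libraries and 134, 140.0 and 144 CPM in ipsilateral ones, without overlap, and a log2 fold change of -0.20 (95% interval -0.46 to 0.06), which was -0.12 without contralateral library 2. Elavl3 had 223, 212 and 212 CPM in contralateral and 208, 219 and 189 CPM in ipsilateral libraries, which overlap, with a log2 fold change of 0.07 (95% interval -0.18 to 0.33).

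The STAR family leaned both ways. Khdrbs1, which encodes the splicing and signalling adaptor Sam68, had 108, 88.9 and 103 CPM in contralateral V1, against 120.4, 113 and 118 CPM in ipsilateral V1, without overlap (log2 fold change -0.23, edgeR adjusted p = 0.820). Khdrbs3 had 124, 116 and 151 CPM in contralateral and 142, 156 and 150.3 CPM in ipsilateral libraries, which overlap (-0.20, edgeR adjusted p = 0.838). Khdrbs2, the SLM1 gene of the same subfamily, leaned the other way with 25.1, 34.6 and 26.6 CPM in contralateral and 21.6, 23.6 and 25.9 CPM in ipsilateral libraries (0.28, 95% interval -0.06 to 0.61). All 3 mice gave Khdrbs2 a positive difference, but the groups overlap and it did not pass (edgeR adjusted p = 0.826). The differences were 0.21, 0.54 and 0.04 in mice 1 to 3, and without contralateral library 2 the value was 0.12. Without that library Khdrbs1 had -0.15 and Khdrbs3 -0.12. Qk had 762, 1049 and 813 CPM in contralateral and 823, 952 and 881 CPM in ipsilateral V1, a log2 fold change of -0.02 (95% interval -0.35 to 0.32) whose sign turned with the filter on low counts. Oligodendrocyte markers, from cells rich in quaking, were all lower without passing, where 44.6% of all genes tested were lower. The sum of these markers was 3737 to 6294 CPM in contralateral and 5236 to 6494 CPM in ipsilateral V1. Their part in the Qk values was not tested.

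Srrm4, which switches on neuronal microexons, was the only member with every contralateral library above every ipsilateral one, against 6.7% of all genes tested. It had 65.4, 63.2 and 72.2 CPM in contralateral V1, against 61.7, 60.9 and 51.1 CPM in ipsilateral V1 (log2 fold change 0.21, 95% interval -0.06 to 0.48; edgeR adjusted p = 0.830). Mouse 3 carried most of it, with within-mouse differences of 0.08, 0.05 and 0.49, and the Srrm4 value was 0.12 without ipsilateral library 3 and 0.07 with the block without mouse 3. In the opposite direction 6 of 36 members had non-overlapping groups, Elavl1, Elavl2, Nova1, Khdrbs1, Fmr1 and Pum2, against 6.29% of all genes. Pum2, a translational repressor, had 371, 372 and 381 CPM in contralateral and 387, 384 and 399.7 CPM in ipsilateral libraries. It was the steadiest member, with a coefficient of variation of 2.77% over 6 libraries, so its groups separated at a log2 fold change of only -0.06.

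The muscleblind genes were all lower, without passing: Mbnl2 had 258, 220.5 and 283 CPM in contralateral and 275, 281 and 300.3 CPM in ipsilateral libraries (log2 fold change -0.17, edgeR adjusted p = 0.861, and -0.08 without contralateral library 2), and Mbnl1 and Mbnl3 had -0.13 and -0.39. Mbnl3 averaged 0.914 CPM and its 95% interval ran from -1.16 to 0.38. Of the RBFOX genes, Rbfox1 had 303, 259 and 365 CPM in contralateral and 312, 353 and 344 CPM in ipsilateral libraries (-0.12), and Rbfox2 (0.06) and Rbfox3 (0.14), the NeuN gene used to label neurons, lay above 0. The groups of all 3 RBFOX genes overlap.

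The editing and double-stranded RNA factors did not pass. Adarb1 had 244, 224 and 232 CPM in contralateral and 267, 213 and 217 CPM in ipsilateral libraries, with a log2 fold change of 0.01 (95% interval -0.27 to 0.28) whose sign turned with the scaling. Adar (-0.09), Adarb2 (0.09), and Ilf2 (-0.12), which encodes NF45, all had intervals that include 0. Dhx9 had 140.0, 129 and 159.7 CPM in contralateral and 137, 159 and 166 CPM in ipsilateral libraries (-0.11, 95% interval -0.39 to 0.17). Among the hnRNP genes, Hnrnpl had 213, 204 and 197 CPM in contralateral and 215, 219 and 205 CPM in ipsilateral libraries (-0.06, 95% interval -0.30 to 0.18). Tardbp, which encodes TDP-43, had -0.02, a sign that turned with the filter on low counts, Ptbp1 0.10 and Ptbp2 -0.07. The CELF genes ran from -0.07 for Celf1 to 0.13 for Celf6, with Celf4, their highest per kilobase, at 412, 452 and 457 CPM in contralateral and 428, 484 and 367 CPM in ipsilateral libraries (0.05, 95% interval -0.25 to 0.34).

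Over the 36 members the median log2 fold change was -0.06, against 0.03 over all 20473 genes. Of the members 21 (58.3%) lay below 0 and 15 above, against 9139 (44.6%) and 11334 of all genes tested. Lower values in 3 of 3 mice were found for 14 of 36 members, against 17.3% of all genes, and higher values in 3 of 3 for 5, against 19.2%. Other lists leaned with the hemisphere without a gene passing. Microglia markers were higher in 10 of 10, summing to 316 to 423 CPM in contralateral and 285 to 373 CPM in ipsilateral V1. Nuclear-retained RNAs were higher in 5 of 6, summing to 14357 to 19646 CPM in contralateral and 13599 to 15850 CPM in ipsilateral V1. No marker of either list was at 0, and their part in the members' values was not tested. With DESeq2's size factors the medians were -0.08 and 0.01, with 22 members (61.1%) below 0, against 48.1% of all genes. For 30 of 36 members the 95% interval of the fit without the block lay within a 1.5-fold change in either direction, against 44.4% of all genes. The exceptions were Elavl2, Nova1 (lower limit of the interval -0.59), Fmr1 (lower limit of the interval -0.63), Elavl4, Khdrbs2 and Mbnl3. Mouse 2, whose libraries are the shallowest and the deepest, gave the largest of the 3 within-mouse differences for 22 of 36 members (61.1%), against 49.4% of all genes. In GENCODE M21, 13 members share exon bases with a gene on the other strand (Elavl1, Nova2, Mbnl2, Adar, Ilf2, Tardbp, Hnrnpl, Ptbp1, Celf2, Celf3, Celf5, Srrm4 and Fxr1). Their counts are uncertain, because the labels do not say how strand entered the counting. Elavl2, Nova1 and Fmr1 have no such overlap, but Nova1, Fmr1 and Elavl3 share exon bases with a predicted gene on their own strand.

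**Figure D3:**
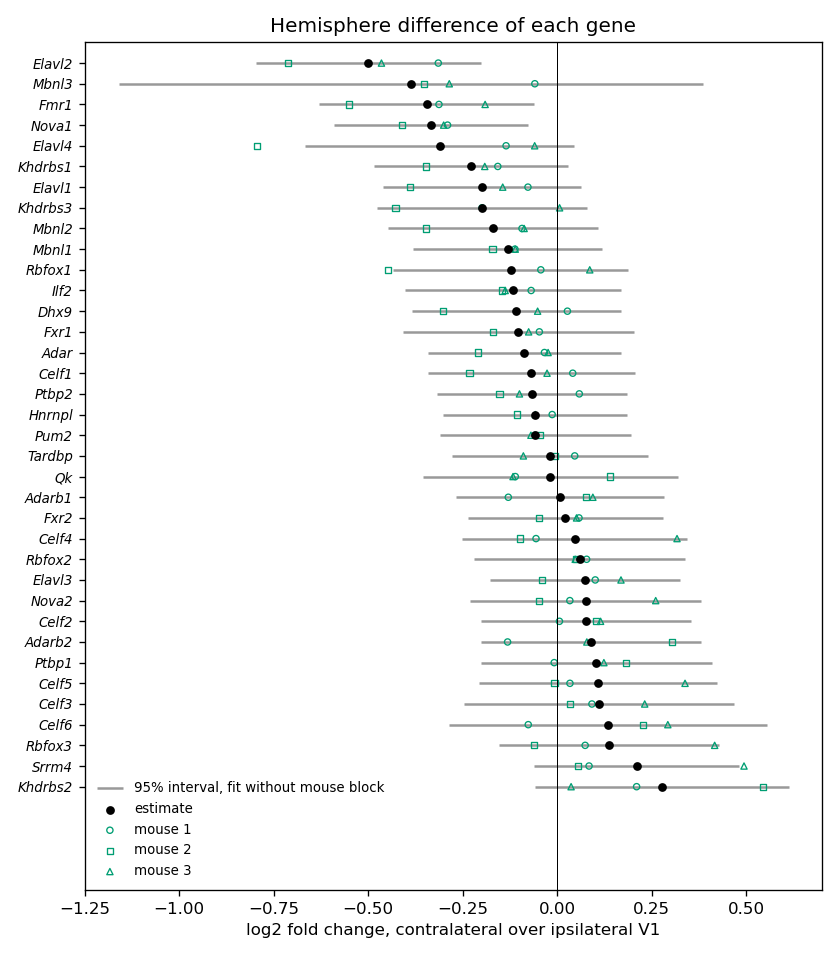
Log2 fold change of contralateral over ipsilateral V1 for 36 genes, with the edgeR estimate (black), its 95% interval (grey) and the difference within each mouse (green; the shape gives the mouse). Estimates and intervals are from the fit without the mouse block. In that fit the intervals of Elavl2, Fmr1 and Nova1 lie below 0, and those of the other 33 genes include 0.

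Genes outside the 36 that act in the same steps did not pass either. Of 21 SR proteins and core splicing factors, 20 other hnRNP proteins, 21 other circRNA-related factors and 25 other neuronal RNA-binding proteins, 0 passed without or with the mouse block, against 0.127% and 0.894% of all genes tested. Their median log2 fold changes were -0.02, -0.14, -0.02 and 0.01. Of the hnRNP list 18 of 20 genes were lower, against 44.6% of all genes tested, with Hnrnph2 (-0.34), Hnrnpf (-0.25) and Hnrnpa1 (-0.21) at the smallest p. In the list of SR proteins and core splicing factors 12 genes were lower and 9 higher. Srrm3, a relative of Srrm4 that also promotes microexons, had a log2 fold change of 0.35 (edgeR adjusted p = 0.770, and 0.0948 with the block). Snrnp70, a component of the U1 particle, had 0.31. Of the circRNA-related list, G3bp2 and Eif4a3 (both -0.28) were among those with the smallest p. Of the neuronal list Igf2bp3 (0.42), Raly (-0.24) and Cpeb3 (-0.23) had the smallest p.

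Mice were also compared with each other, in a test chosen after the values were seen. With edgeR's adjusted p under 0.05 for the mouse terms, 1 of 36 members was called, against 6.41% of all genes, so the members were not called more often than genes at large. The member was Celf3, a neuronal CELF gene (adjusted p = 0.0220). It had 109 and 102 CPM in contralateral and ipsilateral V1 of mouse 1, 92.3 and 90.2 CPM in mouse 2, and 79.4 and 67.6 CPM in mouse 3. Mouse 1 was highest and mouse 3 lowest in both hemispheres, and the hemispheres of mouse 3 lay further apart than those of the other mice. Both libraries of mouse 1 belong to the low mt-Rnr1 set, so that set and the mouse cannot be told apart in mouse 1.

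Some genes of this group are themselves sources of circRNAs. Of the 36 members 7 (19.4%) hosted at least 1 listed circRNA, against 4.43% of all genes tested. They were Elavl2 with 3 circRNAs, Khdrbs3 and Celf2 with 2 each, and Qk, Nova2, Mbnl2 and Elavl3 with 1 each. Level was not matched in this comparison, and the hosts stood at percentiles 80.3 (Elavl2) to 98.9 (Qk) of RPKM among all genes tested. All 11 join the ends of annotated GENCODE M21 exons of their host. Of these circRNAs 8 (72.7%) begin with exon 2 of the matched transcript, against 38.4% of the 1198 listed circRNAs that could be matched in the same way. The 8 include the 3 of Elavl2, which share a start, so they are not independent of each other. The 11 circRNAs contain 1 to 5 exons and 280 to 819 bases after splicing (median 439, against 582 for all matched circRNAs). Of them 4 (36.4%) have a length that is a multiple of 3, close to the 35.5% of all matched circRNAs.

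The back-splice junctions show what each read had to cross, and they set apart circRNAs of the same gene. They are shown for the 3 genes with several circRNAs and for Qk and Nova2, and not for Mbnl2 and Elavl3. Each is given 5′ to 3′ as transcribed, with the last 15 bases of the final exon in lower case and the first 15 bases of the starting exon in capitals, built from GENCODE M21 transcript sequences (GRCm38).
Elavl2 exons 2 to 3: gagacaaaataacagACGGCAACTCCAAAC
Elavl2 exons 2 to 4: accaaaacaataaaaACGGCAACTCCAAAC
Elavl2 exons 2 to 6: ggcacagcgttttagACGGCAACTCCAAAC
Khdrbs3 exons 3 to 6: acctatggagagtatTTCAACTTTGTGGGG
Khdrbs3 exons 3 to 7: caccccagcacaaagTTCAACTTTGTGGGG
Celf2 exons 2 to 3: aaaactttacctgggTAACGGCACAGCCAA
Celf2 exons 5 to 9: ccctcacaagccctgCTGTGGAAGACAGAA
Qk exons 2 to 4: ttactggtacctgcgAAATTAGCAGAGTAC
Nova2 exons 2 to 3: gacagagccaagcagAGGAAGGCGAGTACT
The 3 circRNAs of Elavl2 share the start of exon 2 and differ in the exon whose end is joined to it, as do the 2 of Khdrbs3 with exon 3, whereas the 2 of Celf2 share neither end.

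The comparison of circRNAs asked whether the hemispheres differ in them. None of the 11 was called different between hemispheres, and they were rare, with 419 of 109125 back-splice reads (0.384%). Their 95% intervals had a median width of 2.72 on the log2 scale, so large changes could go uncalled. In edgeR's quasi-likelihood test over 1468 circRNAs, 0 of 11 passed an adjusted p under 0.05, against 0% of all circRNAs, without or with the mouse block, and DESeq2 also gave 0. At an unadjusted p under 0.05, 0 of 11 passed in edgeR without the block, with it, and in DESeq2, against 3.54%, 4.5% and 1.16% of all. The Elavl2 circRNA of exons 2 to 3 (chromosome 4, 91308611 to 91311663, minus strand) was the most abundant of the 11 and ranked 332 among 1488. It had 13, 6 and 10 reads in contralateral V1 of mice 1 to 3, against 7, 19 and 13 reads in ipsilateral V1. The hemispheres overlap, and the log2 fold change was -0.16 with a 95% interval of -1.23 to 0.91.

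The Elavl2 circRNA of exons 2 to 4 (91281214 to 91311663) had 6, 3 and 8 reads in contralateral and 2, 4 and 15 reads in ipsilateral libraries. The longest, of exons 2 to 6 (91260761 to 91311663), had 3, 4 and 4 reads in contralateral and 2, 1 and 2 reads in ipsilateral libraries. Scaled to library size, 1 of 11, this one, had every contralateral library above every ipsilateral one, against 3.81% of all circRNAs tested, and 0 of 11 had every one below, against 4.84%. The counts are so small that its log2 fold change of 1.25 had a 95% interval of -0.14 to 2.65 (edgeR adjusted p = 0.999). Summed over its 3 circRNAs, Elavl2 gave 22, 13 and 22 reads in contralateral and 11, 24 and 30 reads in ipsilateral libraries, with overlap.

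Qk exons 2 to 4 (chromosome 17, 10238893 to 10282981, minus strand) had 7, 11 and 7 reads in contralateral V1, against 4, 19 and 8 reads in ipsilateral V1. Nova2 exons 2 to 3 (chromosome 7, 18942216 to 18950619, plus strand) had 1, 14 and 10 reads in contralateral and 5, 20 and 5 reads in ipsilateral libraries. Both overlap between hemispheres, with log2 fold changes of -0.02. Khdrbs3 exons 3 to 6 (chromosome 15, 69013358 to 69029910, plus strand) had 4, 9 and 7 reads in contralateral and 1, 12 and 10 reads in ipsilateral libraries, and exons 3 to 7 (to 69049461) had 1, 7 and 2 reads in contralateral and 3, 9 and 7 reads in ipsilateral libraries. Their log2 fold changes were 0.05 and -0.69, with intervals that include 0.

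Mbnl2 exon 2 (chromosome 14, 120324794 to 120325412, plus strand) forms a circle from 1 exon that carries the start codon. In fruit flies the muscleblind gene is known for a circRNA from its own exon 2. The mouse Mbnl2 circle had 1, 8 and 5 reads in contralateral V1, against 7, 9 and 11 reads in ipsilateral V1 (log2 fold change -0.79, 95% interval -2.16 to 0.57), and the groups overlap. Celf2 exons 2 to 3 (chromosome 2, 6664115 to 6721613, minus strand) had 3, 4 and 4 reads in contralateral and 9, 5 and 8 reads in ipsilateral libraries. The unscaled contralateral counts lie below the ipsilateral ones, but scaled to library size the groups overlap, with 219, 230.4 and 207 CPM of back-splice reads in contralateral and 639, 192 and 445 CPM in ipsilateral libraries. The log2 fold change was -0.87 (95% interval -2.34 to 0.59; edgeR adjusted p = 0.999). Celf2 exons 5 to 9 (6585974 to 6615822) had 1 to 3 reads in each library, and Elavl3 exons 2 to 3 (chromosome 9, 22036312 to 22036860, minus strand) had 3, 1 and 14 reads in contralateral and 1, 6 and 5 reads in ipsilateral libraries.

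**Figure D4:**
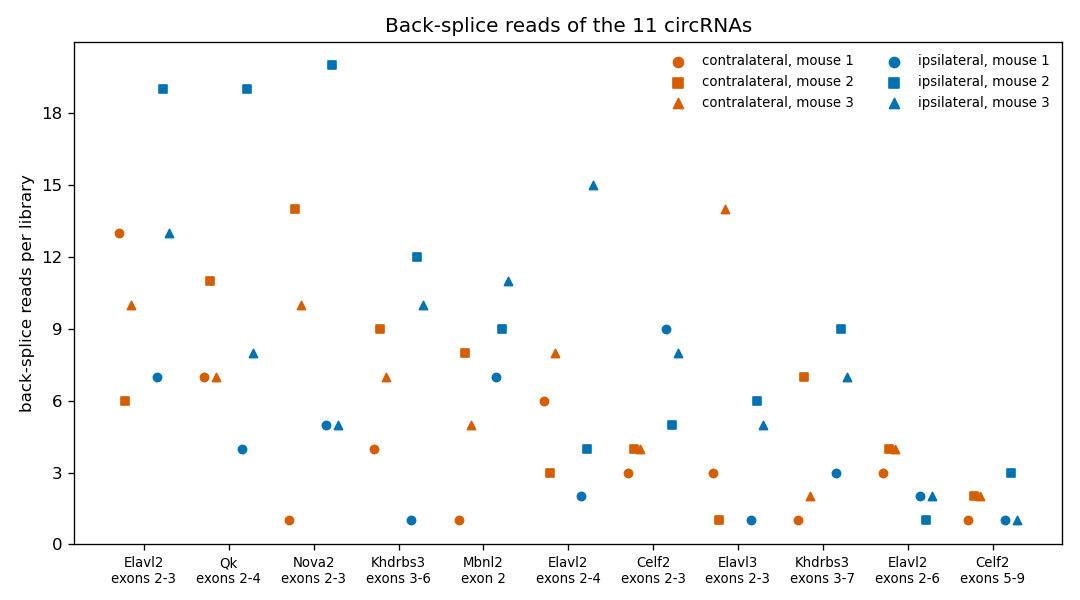
Back-splice reads per library (axis from 0) of the 11 circRNAs, ordered by total reads, with contralateral libraries (orange) left of ipsilateral ones (blue) and the shape giving the mouse. Counts reach 20 reads for Nova2 in ipsilateral mouse 2, and the unscaled reads of the hemispheres overlap for all but Elavl2 exons 2 to 6 and Celf2 exons 2 to 3, the second of which overlaps once scaled to library size.

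The last comparison set each circRNA against the reads of its own host gene, which needs no scaling between libraries. Host reads do not separate linear from circular RNA. Per 1000 host reads, the Elavl2 circRNA of exons 2 to 3 had 8.34, 4.63 and 5.15 reads in contralateral and 3.62, 5.40 and 4.30 reads in ipsilateral libraries, the highest ratio of the 11. Qk gave 0.457, 0.562 and 0.398 reads per 1000 in contralateral and 0.243, 0.647 and 0.372 in ipsilateral libraries. The median of the 11 was 1.51 per 1000 host reads, against 2.64 for 1423 circRNAs with a tested host.

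In limma over 1406 ratios, 0 of 11 passed an adjusted p under 0.05, against 0% of all ratios. At an unadjusted p under 0.05, 1 of 11 passed without the block and 1 with it, against 3.84% and 4.48% of all. In both fits that was Elavl2 exons 2 to 6, with 1.92, 3.09 and 2.06 reads per 1000 host reads in contralateral V1, against 1.03, 0.284 and 0.662 in ipsilateral V1. The groups do not overlap, as for 1 of 11 ratios in this direction, against 5.26% of all ratios, and for 0 of 11 in the other, against 2.63%. The log2 fold change of the ratio was 1.77 (95% interval 0.50 to 3.04; limma adjusted p = 0.976, and 0.921 with the mouse block), resting on 11 contralateral and 5 ipsilateral reads. The host reads in that ratio are the Elavl2 counts that were lower in contralateral V1. Over all circRNAs, the CPM of back-splice reads relative to gene reads was 840.4 ± 157 in contralateral and 760.3 ± 79.8 in ipsilateral V1 (SD, n = 3 each; exact two-sided permutation p = 0.5, where 0.1 is the smallest possible).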

How the data were processed

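V1 RNA from 3 mice gave 6 stranded total RNA libraries, and each was deposited as a column of raw gene counts and of raw back-splice counts, per the file headers. HISAT2, featureCounts, DESeq2, limma and GRCm38 are named without roles in the submitters' processing notes; the tool that called circRNAs, the strand setting and the annotation used were not given in the sources used here. Deposited alongside were normalized circRNA signal values, all 1488 of which equal quantile-normalized counts to 3 decimals, and these served only as an alternative. Gene lengths (another deposited column) came from the same table.

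Symbols came from GENCODE M21, which names 52489 of 52636 gene IDs and has the same bounds for 32 of 36 members. The exceptions were Qk, Khdrbs3, Rbfox1 and Rbfox2. The members and lists were chosen with earlier results of these data known. Tests ran in edgeR 4.0.16 (quasi-likelihood, TMM, minimum count 10 and total 15), DESeq2 1.42.0 and limma 3.58.1 under R 4.3.3. Figures were drawn with matplotlib 3.10.9 under Python 3.11.15. P-values were adjusted by Benjamini-Hochberg over all features, with a threshold of 0.05. CPM are scaled to the reads of tested genes. CircRNAs needed 2 reads in 3 libraries, and ratios used log2((circRNA count + 0.5) / (host count + 0.5)). Fold changes, SEs and intervals are from fits without the mouse block unless another setting is named. Each edgeR SE was taken as the size of the log2 fold change divided by the root of F, so intervals are approximate, and within-mouse log2 differences added 0.5 CPM. Low and high mt-Rnr1 sets were split at 500 CPM. The tests were tried on simulated data.

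Values in every library are given for members that pass in a fit, the 10 with the smallest p and the highest per kilobase in each family, for all 11 circRNAs, and for Celf3, which was chosen after its values were seen. Of other lists, up to 3 genes are named, and 1 gene that this rule selects is not reported here. Both hemispheres of a number come from the same mouse, which pairs the libraries. Within mice 1 to 3 the hemispheres' deviations from their group means had correlations of 0.508, 0.0979 and 0.221, and the highest with another mouse were -0.236, 0.193 and 0.193, so for mouse 2 another mouse's library was closer than its own pair. No molecular identifiers entered the counts, so precision covers counting error and the spread over 3 mice. CircRNAs had a median of 5.83 reads per library. At most 2.03% of tested genes had identical counts in any pair of libraries.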

Additional observations from a re-analysis of the deposited data

How the results depend on the processing

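The 10 members with the smallest p were picked from these same libraries, so a direction kept in refits is no independent support. They kept their direction in all 19 alternatives, and among them only Elavl2 changed its call. Its log2 fold change ran from -0.63 to -0.39, with an adjusted p from 0.00213 to 1.00, and it passed only with the mouse block. Members called lower numbered 1, Elavl2, with the replicate block in edgeR, with DESeq2's size factors, with DESeq2 and without each mouse, and 0 otherwise. The paired fits other than the first edgeR one, and the test of mouse terms, were chosen after seeing the data. Apart from Elavl2 the block changed no call of a member. Over all genes, 26 were called, against 183 with the replicate block, 205 with the block and DESeq2's size factors, 172 with the block in DESeq2, 250, 174 and 269 with the block without mouse 1, 2 or 3, 109 without a filter and 81 in DESeq2. Leaving out 1 library gave 0 to 35 genes in edgeR, with 0 without contralateral library 2 (833 at an unadjusted p under 0.05, and 51 by DESeq2's adjusted p), 17 without contralateral library 3 and 16 without ipsilateral library 2. Over all circRNAs the count of 0 ranged from 0 to 2 when 1 library was left out, with 2 without ipsilateral library 2, and over all ratios 2 were called within the high mt-Rnr1 set. Within that set the Celf2 circRNA of exons 2 to 3 and the Mbnl2 circRNA had log2 fold changes of 0.20 and 0.057, the opposite sign to -0.87 and -0.79, and the cause was not tested. Where a set or a left-out library leaves 1 library of a hemisphere, that library is assumed to vary like the others, and circRNAs that then fell below the read minimum gave no value. For the 11 circRNAs, few reads and the spread over 3 mice together gave 95% intervals that had a median width of 2.72 on the log2 scale.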
